A study of Sus scrofa with 48 samples.

Results

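Cytosolic ribosomal proteins are the protein subunits of the ribosomes that translate nuclear-encoded mRNA, and 57 of their genes, 37 of the large and 20 of the small subunit, were followed in pig subcutaneous adipose tissue. The genes were taken by symbol from the annotation of a custom porcine Agilent array, and each gene was represented by its brightest probe among those that Feature Extraction scored as well above background on 9 or more of a group's 12 arrays. Of the 57 genes, 55 had a probe, RPL21 and RPL36 had none under these symbols, and the single RPL13 probe was well above background on 7 arrays and was not kept. The 54 genes tested, 34 of the large and 20 of the small subunit, stood among 11064 genes tested in all. The rule used symbols, detection and brightness, and no diet or line difference.

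The 48 samples came from as many growing barrows of the Large White breed, each hybridised once in a single colour. All pigs belonged to lines selected in opposite directions for residual feed intake (RFI), the feed eaten beyond that predicted from growth and maintenance. The low RFI (RFIneg) line is the more efficient and the high RFI (RFIpl) line the less efficient. Pigs of each line ate freely either a high-fat high-fiber (HF) or a low-fat low-fiber (LF) diet, and tissue was taken at 132 days of age. This gave 4 groups of 12, namely low RFI pigs on HF, high RFI pigs on HF, low RFI pigs on LF and high RFI pigs on LF. Both lines derive from a single selection experiment, so a difference between lines has 1 pair of lines behind it.

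A ribosome joins a small subunit, which holds the mRNA and reads its codons, to a large subunit, which forms the peptide bonds. The ribosomal protein mRNAs are among the most abundant of a cell, and most begin with a pyrimidine tract through which the TOR kinase, a sensor of nutrients and insulin, adjusts their translation together. A change in ribosome number can therefore occur with little change in these mRNAs, which are what the array measured.

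Levels are given as log2 of the background-corrected probe signal minus the median of that array, so that a level of 0 is the signal of a typical probe. A gene was called when limma's moderated test, fitted over all genes, gave a raw p under 0.01, a fold over 1.1 and a p adjusted by Benjamini-Hochberg under 0.08, the cut-offs of the study. Levels of different probes also reflect probe design, and are not compared as mRNA amounts.

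The probes themselves came first, because the results turn on which strand they appear to carry. Labelled cRNA is complementary to mRNA and pairs with probes that carry the mRNA strand. All 54 brightest probes were well above background on 48 of 48 arrays. For 44 genes the mean level was over 6, from 6.07 for RPL15 to 9.93 for RPLP2, and all 44 were in the brightest 5% of genes. The other 10 lay between 0.04 and 5.04, namely RPL37, RPS2, RPS9, RPL9, RPS19, RPL17, RPL7A, RPL26, RPS7 and RPL3. Of these 10 probes, 7 were read as the complement of the coding strand. For RPS2 and RPL26 this reading rests on a second probe of the array, and for RPL9, RPS9, RPL37, RPS19 and RPL17 on textbook knowledge of the coding sequences, without a pig transcript to set them against. The probes of RPL3, RPL7A and RPS7 were read as the mRNA strand. What the reversed probes hybridised with was not tested.

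The sequences below, printed as on the array from 5′ to 3′, show this for the genes on which the diet comparison rests. In the RPL9 probe the capitals mark the complement of what was read as the start codon, from which the opposite strand reads 14 open codons to the end of the probe. The RPS9 probe, without capitals, was likewise read as the complement of an early stretch of the coding sequence.
RPL9: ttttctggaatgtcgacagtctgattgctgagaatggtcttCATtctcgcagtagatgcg
RPS9: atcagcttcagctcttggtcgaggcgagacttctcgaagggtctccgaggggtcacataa

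For RPS2 and RPL26 a second probe of the array, named partner here, carried the opposite strand of the same stretch, and the capitals mark the bases that pair. The RPS2 pair shared 32 bases and the RPL26 pair 41. The array gives no gene name to the RPS2 partner and gives the RPL26 partner the name MT-2B. A further probe, named RPS2P32 by the array, carried the opposite strand of the RPS2 probe over 23 bases. It was not called by diet (0.12, adjusted p = 0.136, limma). The brightest RPS10 probe, with a level of 8.08, also had an opposite-strand probe over 24 bases, at a level of -4.08.
RPS2: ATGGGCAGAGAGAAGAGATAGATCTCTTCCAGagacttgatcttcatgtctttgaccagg
RPS2 partner: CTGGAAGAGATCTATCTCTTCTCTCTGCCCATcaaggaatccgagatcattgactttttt
RPL26: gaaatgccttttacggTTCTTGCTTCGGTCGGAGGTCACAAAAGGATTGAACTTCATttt
RPL26 partner: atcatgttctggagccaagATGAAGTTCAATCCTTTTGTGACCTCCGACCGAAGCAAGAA

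The partners, read as the mRNA strand, did not pass the call by diet, with log2 differences of 0.12 (adjusted p = 0.133, limma) and 0.06 (adjusted p = 0.294, limma).

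The last set shows coding-strand probes to which later paragraphs refer. RPL3 was the dim coding-strand probe closest to a diet call, the RPL14 probe is a coding-sequence probe of the gene called by line, and the RPL38 and RPL35 probes are the brightest of genes whose other probes differed by line.
RPL3: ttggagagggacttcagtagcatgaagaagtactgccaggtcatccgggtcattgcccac
RPL14: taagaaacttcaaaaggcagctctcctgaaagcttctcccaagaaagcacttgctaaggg
RPL38: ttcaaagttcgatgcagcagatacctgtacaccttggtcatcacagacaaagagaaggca
RPL35: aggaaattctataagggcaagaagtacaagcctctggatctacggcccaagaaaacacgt

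The first question was whether diet altered the mRNAs of the ribosome itself. By diet, 2 of the 54 genes were called, RPL9 of the large and RPS9 of the small subunit, both higher in HF pigs. Over all genes, 3.26% were called higher in HF pigs, so 2 of 54 is close to the background. None was called lower, against 9.35% of all genes. At an unadjusted p under 0.05 limma had 10 of the 54 higher and 0 lower, against 7.13% and 18.8% of all genes. Both called genes rest on probes read as reversed, and without the 7 genes of such probes 0 of 47 were called, a count that holds only as far as that reading of the strands. This held in the main setting, while in 13 of 19 alternatives at least 1 gene on a coding-strand probe was called, up to 5 with arrays scaled to the 75th percentile. In bulk tissue fewer cells of a type and less RNA per cell cannot be told apart.

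RPL9 is a large subunit protein near the base of the stalk. Its level ran from 1.72 through a median of 2.02 to 2.34 in high RFI pigs on LF, and from 1.74 through 2.11 to 2.44 in low RFI pigs on LF. It ran from 2.13 through 2.36 to 2.72 in high RFI pigs on HF, and from 2.21 through 2.40 to 2.65 in low RFI pigs on HF. All 24 HF pigs lay above the LF median, 9 of them lay above the highest LF pig, 15 of 24 LF pigs lay below the lowest HF pig, and the diets overlapped between these levels. The log2 difference was 0.35 ± 0.056 (SE, n = 24 pigs per diet, limma adjusted p = 5.31e-05). Taking each scan date alone it was 0.37 on the first and 0.33 on the second, and was called in both.

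RPS9 is a small subunit protein of the body of the particle. Its level ran from 1.38 through a median of 1.73 to 2.02 in LF pigs and from 1.62 through 1.91 to 2.14 in HF pigs. The diets overlapped widely, with 19 of 24 HF pigs above the LF median and 5 above the highest LF pig. The log2 difference was 0.16 ± 0.048 (SE, n = 24 pigs per diet, limma adjusted p = 0.0225), with 0.25 on the first scan date and 0.073 on the second. It was not called on the second date alone (adjusted p = 0.668) or with array position as a block (0.146, adjusted p = 0.0989), and its adjusted p ran from 0.00359 to 0.668 over all settings tried.

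**Figure D1:**
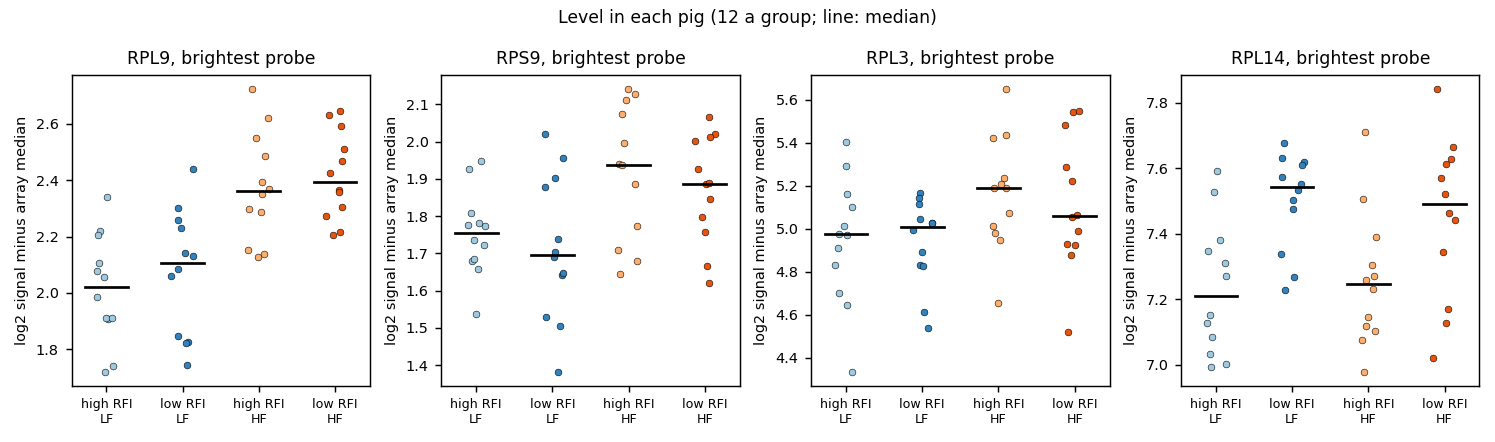
Level of RPL9, RPS9, RPL3 and RPL14 in each of 48 pigs, as log2 signal minus the array median, by line and diet with 12 pigs a group. Points are pigs and lines are group medians. For RPL9 all HF pigs sit above the LF median, for RPS9 and RPL3 the diets overlap widely, and for RPL14 the separation runs by line.

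Several genes on coding-strand probes came close to the call, all of them with higher levels in HF pigs. RPL3, which shapes the peptidyl transferase centre, ran from 4.34 through a median of 4.99 to 5.40 in LF pigs and from 4.52 through 5.13 to 5.65 in HF pigs. Its groups overlapped widely, with 6 HF pigs above the highest LF pig. The log2 difference was 0.20 ± 0.076 (SE, n = 24 pigs per diet), and limma's raw p of 0.0102 just missed the cut-off while the adjusted p was 0.0736. RPL3 was called when slide (adjusted p = 0.00839), scan date (0.0138) or replicate number (0.00668) entered as a block, and its adjusted p ran from 0.00668 to 0.429 over all settings (limma). With array position as a block it was 0.232 and not called (adjusted p = 0.107, limma). It was 0.260 and called on the first scan date alone, and 0.148 and not called on the second. RPL28 of the large subunit differed by 0.118 ± 0.041 (SE, n = 24 pigs per diet, limma adjusted p = 0.0533), a fold of 1.09. RPS15, whose tail reaches the decoding site of the small subunit, differed by 0.111 ± 0.039 (SE, n = 24 pigs per diet, limma adjusted p = 0.0535), a fold of 1.08. Both passed the 2 cut-offs on p and missed that on fold. RPS14, at 0.097, also missed on fold, and RPS3A, at 0.090, missed on raw p and fold.

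At the other end no gene passed. RPL37, with 0.04 the dimmest of the reversed probes by mean level, had the lowest difference at -0.11 ± 0.094 (SE), followed by RPL17 at -0.045 and RPL26 at -0.041, both also on reversed probes. In the small subunit RPSA alone lay below 0, at -0.019 ± 0.032 (SE), next to RPS16 at 0.015 and RPS3 at 0.018. RPL37, RPL17, RPL26 and RPSA each turned above 0 in 1 to 4 of the 19 alternatives.

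Although few genes were called, most lay on one side. A difference above 0 was seen in 42 of 54 genes, against 37.7% of all genes tested. In the large subunit 23 of 34 lay above 0 with a median of 0.036, and in the small subunit 19 of 20 with a median of 0.057, while the median over all genes was -0.039. Large minus small subunit came to -0.021 between these medians and to -0.025 when taken pig by pig. The SD between single pigs was 0.092, which is not the error of a difference between diets, and the difference was not tested. Among the 44 genes with a level over 6, 35 lay above 0 and the median was 0.039, while the other 518 genes as bright had a median of -0.057 and 29.7% above 0. The median SE of a member was small, 0.038 for the 44 bright genes against 0.077 over all genes.

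**Figure D2:**
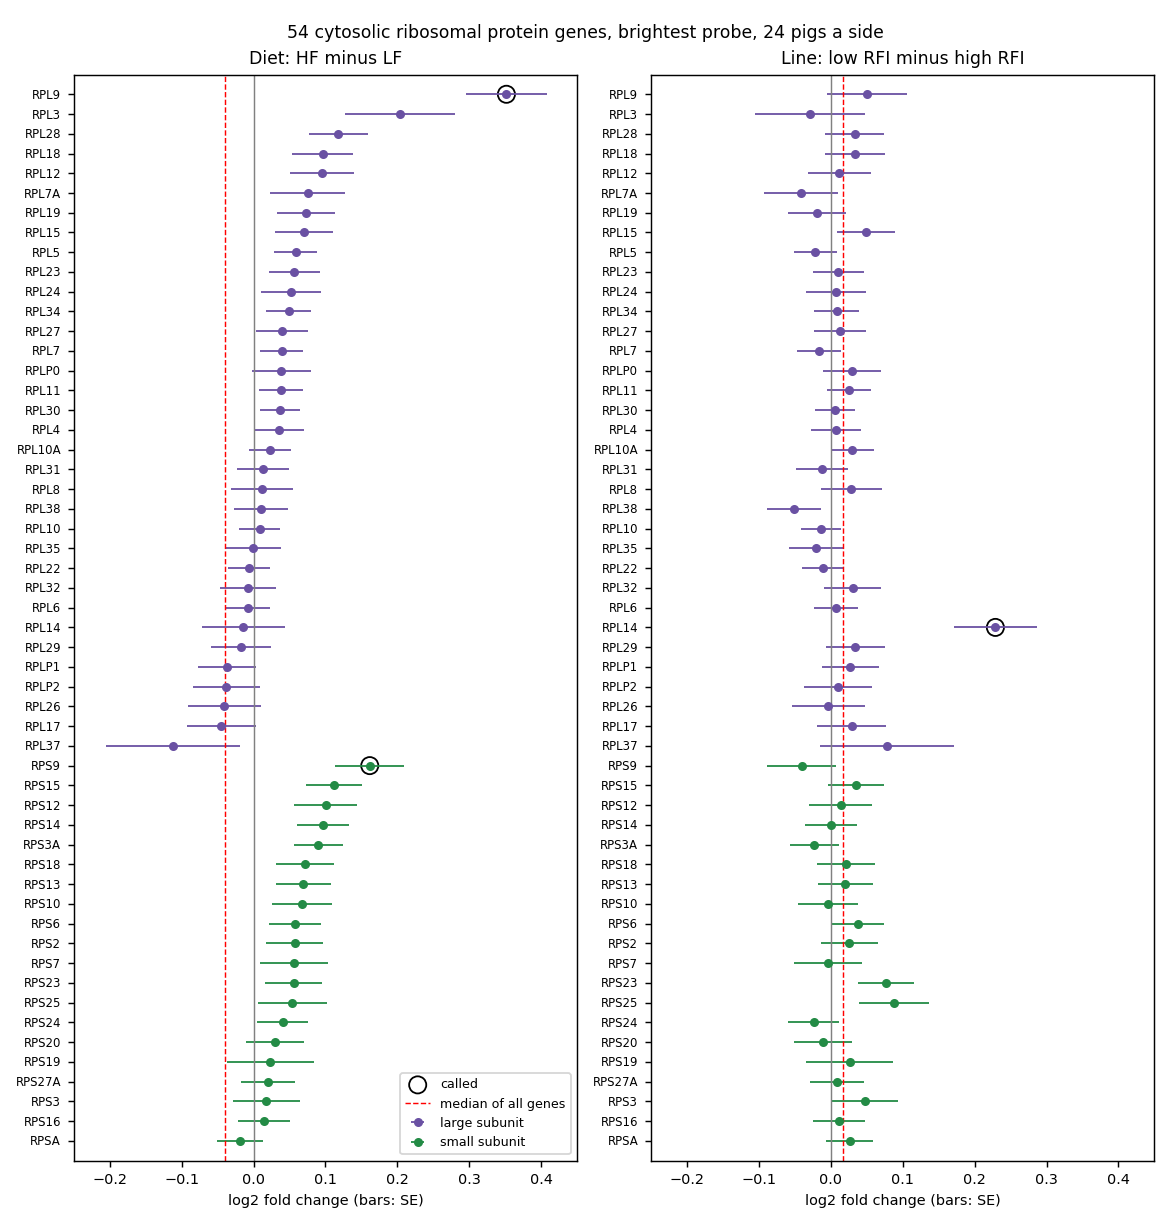
Log2 fold change of each of the 54 genes by diet (left, HF minus LF) and by line (right, low RFI minus high RFI), ordered within the large and small subunit by the diet change. Bars are standard errors with 24 pigs a side, rings mark called genes, and the dashed line is the median of all genes tested. Diet changes lie mostly to the right of both 0 and the dashed line, and line changes lie around it apart from RPL14.

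In the main setting the genes with special roles showed the same small values. The stalk, which recruits translation factors, is built on RPLP0 and carries RPLP1 and RPLP2, with RPL12 at its base. RPLP0 ran from 9.04 through a median of 9.28 to 9.71 in LF pigs and from 9.03 through 9.35 to 9.51 in HF pigs. RPLP1 had medians of 9.89 and 9.89 and RPLP2 of 9.93 and 9.91 in LF and HF pigs, so the diets overlapped almost wholly. The log2 differences were 0.038 for RPLP0, -0.037 for RPLP1, -0.038 for RPLP2 and 0.095 for RPL12, with adjusted p from 0.162 to 0.658 (limma). Over the alternatives RPLP0 ran from 0.025 to 0.131, RPLP1 from -0.057 to 0.066 and RPLP2 from -0.048 to 0.064. RPL12 was called with the array median signal as a covariate (0.158, adjusted p = 0.00154, limma).

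RPL5 and RPL11 travel with 5S rRNA as a particle that can also bind the p53 regulator MDM2. Their differences were 0.059 and 0.038. RPS6, the classical substrate of S6 kinase, had LF and HF medians of 8.42 and 8.46 and a difference of 0.058. RPS27A, made as a fusion with ubiquitin, differed by 0.020. At the mRNA entry channel RPS3 differed by 0.018, and RPS2, on a reversed probe, by 0.057. In the head of the small subunit RPS18 differed by 0.072 and RPS19, on a reversed probe, by 0.023. None of these genes was called, and in each the HF and LF pigs overlapped over most of their range.

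The size of these differences and the number of calls depended on how arrays were scaled to each other, while the median fold change of both subunits stayed above 0. Taken pig by pig, the large subunit median differed by -0.00051 on the second scan date. The gap between the 75th percentile and the median of an array was 2.33 ± 0.044 in HF pigs and 2.37 ± 0.044 in LF pigs (SD, n = 24 each, 2-sided permutation p = 0.00219), so that scaling to the 75th percentile raised the diet difference of every gene by the same 0.041. The median of all genes then moved from -0.039 to 0.002. With this scaling 52 of 54 ribosomal genes lay above 0, beside 50.5% of all genes, and 7 were called higher (RPL3, RPL9, RPL28, RPS9, RPS12, RPS14 and RPS15), against 5.54% of all genes. With quantile normalization 52 lay above 0, beside 44.4% of all genes, and 6 were called, all but RPS14 of the same genes, against 4.4% of all genes. The share of all diet calls that were higher in HF pigs moved with it, from 25.9% under the array median to 51.9% and 39.3%. Array median signal itself was higher in HF pigs, 8.44 ± 0.160 against 8.33 ± 0.191 in LF pigs (log2, SD, n = 24 each, 2-sided permutation p = 0.0412). With it as a covariate 54 of 54 genes lay above 0, beside 42.1% of all genes, and 6 were called, while 439 of 11064 genes were called higher. The share of members above 0 was also unequal between scan dates, with 48 of 54 on the first and 32 of 54 on the second. Which scaling is nearer to the mRNA amounts was not tested.

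A measure that needs no centring of log values is the share of the summed linear signal of all genes that fell on the 54 genes. It is itself a scaling, to a sum in which bright genes weigh most. The other 518 genes with a level over 6 had a diet median of -0.057, with 29.7% above 0, and their part in the share was not tested. The share ran from 7.77% through a median of 8.54% to 9.86% in LF pigs and from 8.56% through 9.12% to 9.99% in HF pigs. The means were 8.61% ± 0.440 and 9.14% ± 0.318 (SD, n = 24 each), and the groups overlapped. The mean share of the large subunit was 5.47% in LF and 5.75% in HF pigs, and that of the small 3.14% and 3.39%. The difference of 0.530 percentage points was 0.620 on the first scan date and 0.441 on the second. By line the mean share was 8.84% ± 0.377 for the low and 8.91% ± 0.545 for the high RFI pigs (SD, n = 24 each). The difference turned from 0.227 percentage points on the first scan date to -0.348 on the second.

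**Figure D3:**
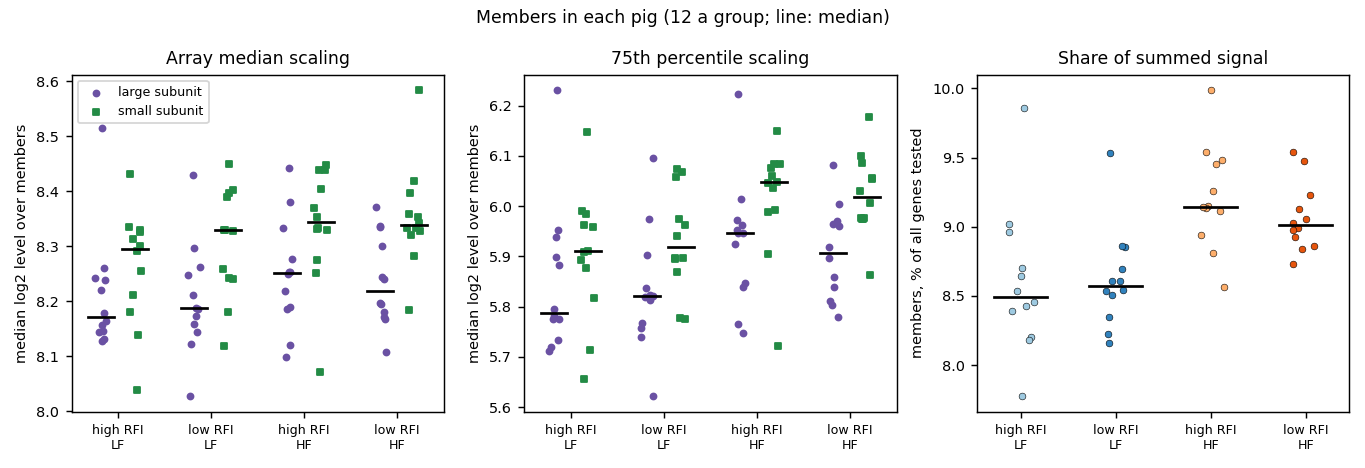
Left and middle, median log2 level over the large (circles) and small (squares) subunit genes in each pig, with arrays scaled to the median or to the 75th percentile. Right, summed signal of the 54 genes as a percent of all genes tested. Each point is a pig, 12 a group, and lines are medians. HF groups sit slightly above LF groups in all 3 panels, by more under the 75th percentile scaling and for the share (9.14% against 8.61%), and the groups overlap.

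The other probes of these genes were read in a second fit. The array carried 247 kept probes for the 54 genes, and 38 genes had 2 or more. In this fit over all probes 16 of the 247, RPL9 and RPS9 included, were called higher in HF pigs (6.48%), close to the 5.61% of all probes, and 1 was called lower, against 7.44%. The 16 lay in RPLP0 (6 probes), RPL5, RPS15 and RPS3A (2 each) and RPL9, RPS9, RPS16 and RPS18 (1 each), and the 1 lower probe in RPL14. RPS15 gave the lowest p-values among genes with several probes. Its probe near the start of the transcript ran from 4.89 through 5.26 to 5.46 in LF pigs and from 5.24 through 5.47 to 5.71 in HF pigs, a difference of 0.24 ± 0.041 (SE). The brightest RPS15 probe differed by 0.111.

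RPLP0 had the most called probes, 6 of 14. Its brightest probe, starting at base 1013 of the annotated transcript, had a level of 9.30 and a difference of 0.038 ± 0.041 (SE). A probe starting at base 690 had a level of 8.34 and a difference of 0.155 ± 0.045 (SE), and one starting at base 146 had a level of 5.35 and a difference of 0.214 ± 0.073 (SE). Thus dimmer probes, nearer the start, gave larger diet differences. The RPSA probes, from the one starting at base 36 to that at base 932, went from 0.056 to -0.037 in the same order, with none called.

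The order of probes was compared in the 8 ribosomal transcripts with at least 5 probes of annotated position, 85 probes in all. In 8 of 8 the diet difference fell as probe signal rose (median rank correlation across probes -0.79, from -0.42 in RPL7 to -1.0 in RPSA). Probes of a transcript share its mRNA and many overlap, so these correlations are descriptions. Of 147 other genes with as many probes, 61.9% had a correlation below 0, with a median of -0.22. In both sets signal rose towards the end of the transcript (median rank correlation 0.80 and 0.71). In RPS10 signal fell towards the end (-0.37), and the diet difference had a correlation of -0.77 with signal and 0.60 with position. In RPL7 signal and position were nearly unrelated (0.07), and the diet difference had a correlation of -0.42 with signal and -0.65 with position. A late-minus-early contrast over the other genes, a guide to RNA integrity and labelling length, was 1.52 ± 0.047 in HF and 1.54 ± 0.044 in LF pigs (SD, n = 24 each, 2-sided permutation p = 0.116), lower in HF pigs in 98 of 147 genes. Over the member transcripts it was 0.95 ± 0.076 and 0.988 ± 0.070 (SD, n = 24 each), lower in HF pigs in 7 of 8 and on both scan dates. The part of signal range and labelling in the pattern was not tested.

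**Figure D4:**
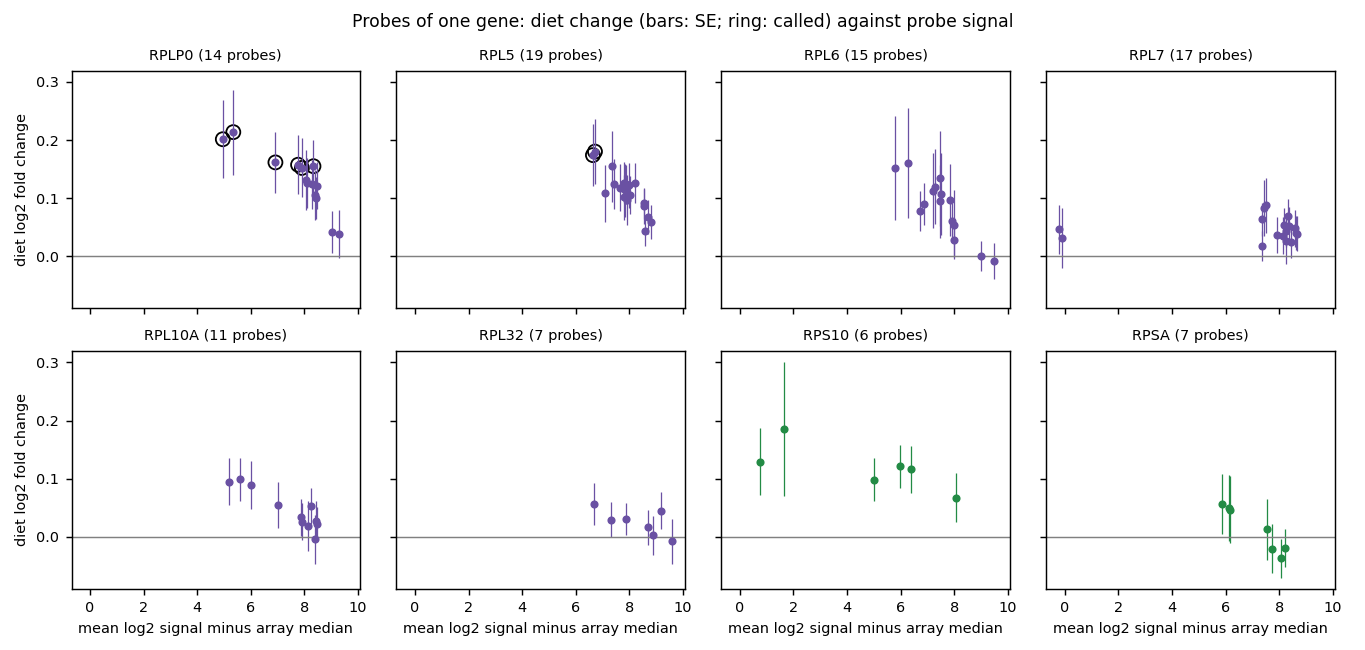
Diet log2 fold change of each probe against its mean level, for the 8 genes with at least 5 probes of known position (all kept probes of each gene are drawn). Bars are standard errors with 24 pigs a side and rings mark called probes. Within each gene the brighter probes tend to lie lower, most plainly in RPLP0, where the change falls from 0.214 to 0.038.

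The second question was whether the RFI lines differed. By line 1 of the 54 genes was called, RPL14, higher in low RFI pigs, where 0.777% of all genes were called higher. None was called lower, against 0.389% of all genes, and at an unadjusted p under 0.05 limma had 1 of the 54 higher and 0 lower, against 6.24% and 4.02% of all genes. The medians of the large and small subunit were 0.010 and 0.017, beside 0.017 over all genes. Large minus small came to -0.007 between these medians. Taken pig by pig it was -0.039, with -0.070 on the first scan date and -0.008 on the second. The SD between single pigs was 0.092, which is not the error of a difference between lines, and the difference was not tested. The direction was not stable between scan dates, with 50 of 54 genes above 0 on the first and 11 of 54 on the second.

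RPL14 is a protein of the solvent side of the large subunit. Its level ran from 6.99 through a median of 7.21 to 7.59 in high RFI pigs on LF and from 6.98 through 7.24 to 7.71 in high RFI pigs on HF. It ran from 7.23 through 7.54 to 7.68 in low RFI pigs on LF and from 7.02 through 7.49 to 7.84 in low RFI pigs on HF. In all, 20 of 24 low RFI pigs lay above the high RFI median, and the lines overlapped over most of the range. The log2 difference was 0.23 ± 0.058 (SE, n = 24 pigs per line, limma adjusted p = 0.0373). It was 0.30 on the first scan date and 0.15 on the second, where it was not called (adjusted p = 0.825) and 0 of 11064 genes were called by line. With array position as a block it was 0.212 and not called (adjusted p = 0.118), and the adjusted p ran from 0.00391 to 0.825 over all settings.

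Most RPL14 probes gave the same difference. Of 7 probes, 6 were called higher in low RFI pigs. The coding-sequence probe printed above differed by 0.23 and 4 overlapping probes near the end of the transcript by 0.23 to 0.24. A far dimmer probe, starting at base 1389, differed by 0.38. The last RPL14 probe differed by 0.06 by line and was the 1 probe called lower by diet, at -0.45 ± 0.129 (SE). Thus 2 stretches of the transcript that do not overlap moved alike by line.

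In RPL38 and RPL35 the probes of a gene disagreed. The brightest RPL38 probe ran from 7.97 through 8.13 to 8.46 in high RFI and from 7.85 through 8.06 to 8.44 in low RFI pigs, a difference of -0.051 ± 0.037 (SE). Its other probe ran from 3.88 through 4.36 to 6.77 in high RFI and from 4.08 through 6.12 to 7.15 in low RFI pigs, a difference of 1.27 ± 0.260 (SE, limma adjusted p = 0.008). No pig had a level between 4.71 and 5.71 on this probe. Above that gap were 26 pigs, 10 of 12 low RFI pigs on HF, 10 of 12 low RFI pigs on LF, 2 of 12 high RFI pigs on HF and 4 of 12 high RFI pigs on LF.

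RPL35 probes also disagreed, at lower signal and without so clear a gap between pigs. The brightest RPL35 probe had medians of 8.63 in high RFI and 8.64 in low RFI pigs, a difference of -0.021 ± 0.038 (SE). Both other probes, which carry one and the same sequence, differed by 0.63, with levels from 0.06 through 0.72 to 1.93 in high RFI and from 0.32 through 1.65 to 2.34 in low RFI pigs on the first of them. These 9 probes, in RPL14, RPL38 and RPL35, were the only member probes called by line in the fit over probes, all higher in low RFI pigs, where 0.809% of all probes were called higher and 0.557% lower. What sets the pigs above and below the gap of the RPL38 probe apart was not tested.

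**Figure D5:**
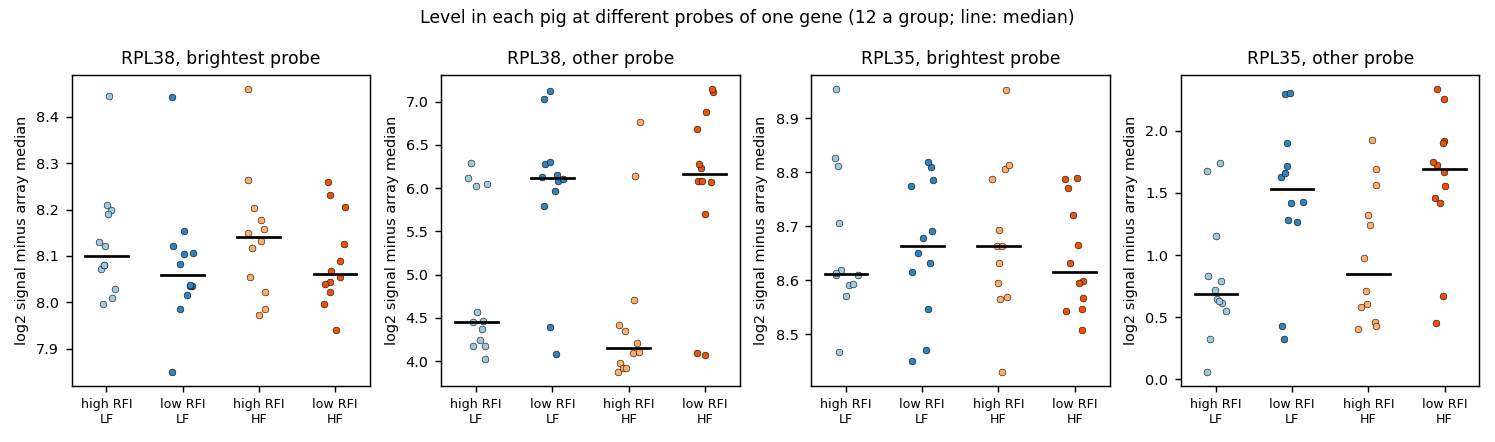
Level in each pig on the brightest and on another probe of RPL38 and of RPL35, as log2 signal minus the array median, by line and diet with 12 pigs a group and lines at the medians. On the other RPL38 probe the pigs fall on either side of a gap from 4.71 to 5.71, with 20 of 24 low RFI and 6 of 24 high RFI pigs above it, while the other RPL35 probe differs by line without such a gap and the brightest probes show neither.

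No gene of the 54 was called for the interaction, nor was any of the 11064 genes (0%). At an unadjusted p under 0.05 limma had 0 of the 54, against 53 genes (0.479%) above and 44 (0.398%) below 0 over the whole array. Within low RFI pigs diet called RPL9 alone (log2 difference 0.34, 0.606% of all genes called higher), and within high RFI pigs again RPL9 alone (0.36, 0.262% of all genes called higher). Neither call was made with array position as a block or on a single scan date, where low RFI pigs had at most 2 and high RFI pigs at most 95 of 11064 genes called by diet. With the signal covariate 6 and 5 of the 54 were called, beside 797 and 479 of 11064 genes. By diet 51 of 54 genes lay above 0 in high RFI pigs, beside 37.1% of all genes, and 37 of 54 in low RFI pigs, beside 4430 of the 11064. By line 20 of 54 lay above 0 on HF, beside 59.8% of all genes, and 40 of 54 on LF, beside 54.7%. The interaction was below 0 in 48 of 54 genes, beside 46.6% of all genes, with the lowest values of -0.12 in RPS20 and RPS3. None of these genes was past the test of the interaction.

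Other genes of the translation machinery, listed by function, are set beside all genes tested, of which 9.35% were called lower by diet, 62.3% lay below 0 and the median was -0.039. Ribosome biogenesis factors and RNA polymerase I subunits had 20 of 70 tested genes called lower in HF pigs and 0 higher, with a median of -0.11. Among them were RIOK2, a kinase of late small subunit maturation (-0.37 ± 0.055, SE), RRS1, which helps load the 5S particle (-0.36 ± 0.071, SE), and BRIX1, a large subunit assembly factor (-0.28 ± 0.052, SE). POLR1D, a subunit shared by RNA polymerases I and III, was also lower (-0.26 ± 0.045, SE). The mitochondrial ribosomal proteins, which serve the separate ribosome of that organelle, had 11 of 66 called lower and 0 higher, with a median of -0.093.

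Translation initiation factors had 9 of 38 genes called lower and 0 higher, with a median of -0.089. They included the cap-binding protein EIF4E (-0.24 ± 0.067, SE), the helicase EIF4A1 (-0.20 ± 0.048, SE) and EIF5, which triggers GTP hydrolysis at the start codon (-0.23 ± 0.052, SE). Of 16 elongation and termination factors 3 were lower, among them the release factor ETF1 (-0.24 ± 0.042, SE). Of 21 genes of TOR control, whose median of -0.037 is about that of all genes, 5 were lower, among them RPS6KB1, the S6 kinase (-0.17 ± 0.061, SE), and EIF4EBP2, a repressor of EIF4E (-0.22 ± 0.051, SE). With the 75th percentile scaling, where 569 of all 11064 genes were called lower and 613 higher, the lower calls became 12 for biogenesis, 6 for mitochondrial ribosomal proteins, 6 for initiation with 2 higher, 2 for elongation and 2 for TOR control, where the median turned to 0.004. The elongation median turned to 0.006 with quantile normalization and to 0.00071 on the first scan date alone. On single scan dates, with fewer pigs, TOR control had no call on either and the mitochondrial list none on the second.

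The 25 tested cytosolic ribosomal protein genes outside the 57 had a diet median of 0.045, with 3 called higher and 0 lower, against 3.26% and 9.35% of all genes. The 3 became 6 with the 75th percentile scaling and with quantile normalization, and 0 on the second scan date alone. The 3 were RPL13A (0.20 ± 0.046, SE), RPL22L1 (0.27 ± 0.056, SE) and RPL3L (0.15 ± 0.032, SE). The RPL22L1 probe was also read as the complement of the coding strand, and whether the probe of RPL3L, a muscle relative of RPL3, shares signal with RPL3 was not tested. By line, where 0.777% of all genes were called higher and 0.389% lower, 2 of 66 mitochondrial ribosomal proteins were called higher in low RFI pigs, MRPL9 (0.25 ± 0.052, SE) and MRPL15 (0.21 ± 0.054, SE), and none of the 25. The mitochondrial 2 became 1 on the first scan date alone and 0 on the second. In TOR control 2 of 21 were called higher (RRAGD and EIF4EBP2), in biogenesis 1 of 70 higher (UTP18) and 1 lower (WDR3), and of the initiation and elongation factors none.

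The labelled tissue carried its markers. The summed linear level of 9 adipocyte markers ran from 2249 to 3228 times the array median in LF and from 2272 to 3211 in HF pigs. Of these 9, LEP (-0.67 ± 0.162, SE) and CIDEA (-0.36 ± 0.10, SE) were called lower by diet. The 6 fibroblast markers all lay above 0 by diet, 2 of them called higher (PDGFRA and COL1A2), and their sum ran from 908 through 1561 to 2838 in LF and from 1282 through 1798 to 2328 in HF pigs. Of the macrophage, lymphocyte, red cell, endothelial and muscle markers none was called. All 7 skeletal muscle markers lay below 0 by diet, with a median of -0.22 beside 0.21 for the fibroblast markers, and their sum ran from 25.05 to 73.4 in LF and from 23.4 to 61.8 in HF pigs. By line all 6 fibroblast markers (median -0.14) and 7 of 9 macrophage markers (median -0.16) lay below 0. The part of these cell types in the ribosomal values was not tested.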

How the data were processed

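Total RNA of each pig was labelled with Cy3 by T7 amplification from the poly(A) end and hybridised to a custom porcine 60-mer array. The authors deposited one scanner table per array from Agilent Feature Extraction, in which the processed signal is a background-corrected intensity on a linear scale. Outlier spots (227) were set to missing here, and 0 spots were saturated. The authors also deposited a log2 table of 38987 probes. It equals log2 of the median signal minus the array median, to within 4.87e-09, and was used as an alternative. R version 2.10.0 is named in the submitters' processing notes.

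Here log2 of the processed signal was centred on each array's median over the 44356 probes kept. Probes were named from their accessions or gene number through RefSeq tables, or else from the array's gene name. This gave a symbol to 22887 kept probes and 11064 genes. Probe design limits the comparison of levels, and the number of arrays, 12 a group, limits the precision.

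limma 3.58.1 in R 4.3.3 was fitted with an intensity trend on diet, line and interaction over all 48 arrays, with 2-sided tests, and calls followed the study's cut-offs. Python 3.11.15 with numpy 2.4.6 and pandas 2.3.3 served for counts, and matplotlib 3.10.9 for figures. Permutation tests of array measures used 100000 resamples. Each pig was 1 replicate. Slides (6) and scan dates (2) held each group equally, while the positions of arrays on a slide did not.

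Named genes were the called ones, the 3 largest changes in each direction by subunit and comparison, and fixed sets by role. RPS14 and RPS3A by diet, and the probes of RPLP0, RPS15, RPL38 and RPL35, were named after their values were seen. The genes, the lists and the tests were chosen with earlier results of these data known, and probes were read as reversed after seeing them. On simulated data with 11032 genes, 51% of true diet changes of 0.25 and 85% of 0.5 on the log2 scale were recovered, with 10 false calls. The simulated noise was independent between genes, without shared shifts of an array, slide or scan date. The changed genes were drawn at random from all genes, so these rates are not those of the ribosomal genes. Promoter and protein sequences were not used here.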

Additional observations from a re-analysis of the deposited data

How the results depend on the processing

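The counts of genes called were recomputed under 19 alternatives and 1 added after seeing the data, the removal of the 7 genes on probes read as reversed. Subunit medians were recomputed under 16 of the 19, the translation lists under 4 alternatives, the signal share on single scan dates, where it turned sign by line, and the fit over probes and the position correlations under none. The diet medians of the fold changes stayed above 0 but varied in size, from 0.002 (second scan date alone) to 0.077 (75th percentile) for the large and from 0.038 to 0.098 for the small subunit, and large minus small stayed between -0.040 and -0.017. By line the medians ran from -0.043 to 0.062 and from -0.043 to 0.075. The interaction gave no call in any setting.

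The count by diet, 2, became 7 with the 75th percentile, 6 with quantile normalization, 6 with a signal level covariate, 1 with array position as a block, 1 on the second scan date alone, 0 without reversed probes and 3 in 10 other alternatives, RPL3 being added in 9 of them and RPS15 with the mean of all probes. Over all genes 3.26% were called higher in the main setting. The share was 5.54% with the 75th percentile, 4.4% with quantile normalization and 3.97% with the covariate. It was 2.42% with the position block and 0.651% on the second scan date alone, and 1.03% to 4.46% where the count was 3. The count by line, 1, became 3 with the mean of all probes (RPL14, RPL35 and RPL38), 0 with array position as a block and 0 on the second scan date alone. Over all 11064 genes 129 were called by line in the main setting, and 145, 44 and 0 in these settings in turn. The mean of all probes turned RPL38 by line from -0.051 to 0.61. Within low RFI pigs the diet count, 1, became 2 with quantile normalization, 6 with the covariate, and 0 with the position block, on either scan date alone and without reversed probes. Within high RFI pigs it became 2 with quantile normalization, 2 with the mean of all probes, 2 with array weights, 5 with the covariate, and 0 with the position block, on either scan date alone and without reversed probes. Over all 11064 genes the calls within low RFI pigs went from 269 to 0 with the position block, to 2 and 0 on single scan dates, to 797 with the covariate, to 660 with the replicate block and to 1152 with array weights, and within high RFI pigs from 168 to 37, to 95 and 0, to 479, to 498 and to 672. Single scan dates hold fewer samples, and array positions were not shared equally by the groups. The cause of the other changes was not tested.

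RPL9 by diet was called in every setting that kept it, between 0.33 and 0.40. RPS9 and RPL14 lost their calls with the position block (0.146 and 0.212) and on the second scan date alone. RPL3 by diet was called in 11 settings.

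Replicate numbers were not taken to pair the samples. Same-numbered arrays, 1 from each group, lay at positions 1 to 4 or 5 to 8 of the same slide. A link between pigs of a number and their place on the slide therefore cannot be told apart. Of 72 same-numbered pairs, 45 had a correlation of deviations over 0.1 (median 0.166, lowest -0.218), more than the 33 of 72 other pairs on one slide (median 0.062) and the 148 of 720 pairs on different slides (median -0.037), and 18 of 48 arrays correlated best with their own number. With the replicate number as a block, the diet count was 3, RPL3 being added, the line count 1 and the interaction 0, and the calls over all genes rose from 1395 to 1686.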
